A study of Homo sapiens with 4 samples.

Results

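The retinoblastoma and E2F family genes were followed through a map of PML binding. Members were the rows of the annotated peak table whose gene name was RB1, RBL1, RBL2, E2F1, E2F2, E2F3, E2F4, E2F6, E2F7 or E2F8. These 10 genes were named for 24 of 68937 peaks, in a table that names 13948 protein-coding genes. Of these members, 3 were pocket protein genes with 8 peaks, 3 activating E2F genes with 7 peaks and 4 repressive E2F genes with 9 peaks. E2F5 was not among the members.

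Chromatin bound by PML, the scaffold protein of PML nuclear bodies, was immunoprecipitated with a Bethyl antibody. The cells were MDA-MB-231, a long-established line from a human breast cancer of the triple-negative type. There were 2 PML ChIP libraries and 2 input libraries of these cells, and the labels give neither a treatment nor a genetic change. The duplicates were merged by the authors into 1 peak list, so no value has a replicate error and no test was run. Read depth is unknown from the table, and the peaks show binding only; transcript levels were not analysed here.

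Pocket proteins bind E2F transcription factors and hold their target genes silent until cyclin-dependent kinases phosphorylate the pocket protein in late G1. E2F1, E2F2 and E2F3 mainly activate genes of DNA replication, whereas E2F4, E2F6, E2F7 and E2F8 mainly act as repressors. Several of the genes are themselves E2F targets, so the family forms feedback loops. In senescent cells, PML bodies are known to gather the retinoblastoma protein and E2F factors. The table concerns where PML lay on the genes, not these protein contacts.

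Stretches of 120 bases before the start of 6 members are given first, as examples of the letters compared with the peaks below. They come from RefSeq promoters of GRCh38.p14, the assembly of the hg38 peaks, and run 5′ to 3′ on the strand of the gene. Capitals mark a match to an E2F site (TTTCCCGC, TTTCGCGC, TTTGCCGC or TTTGGCGC), to a shorter E2F core (TTNGCG) or to a shorter RONIN core (ACTAC, any 3 bases, then TCCC), on either strand. RONIN is the promoter-binding protein named in the title of the series. Both shorter cores were chosen after the sequences had been seen. The stretches lie at chr20:37095998-37096117 for RBL1 (minus strand), chr16:53434351-53434470 for RBL2 (plus), chr20:33686386-33686505 for E2F1 (minus), chr1:23531234-23531353 for E2F2 (minus) and chr2:11466162-11466281 for E2F6 (minus). Both starts of E2F3 are shown, at chr6:20401759-20401878 and chr6:20403494-20403613 (plus).
RBL1: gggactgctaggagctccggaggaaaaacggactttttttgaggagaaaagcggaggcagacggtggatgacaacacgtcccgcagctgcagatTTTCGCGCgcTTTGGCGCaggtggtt
RBL2: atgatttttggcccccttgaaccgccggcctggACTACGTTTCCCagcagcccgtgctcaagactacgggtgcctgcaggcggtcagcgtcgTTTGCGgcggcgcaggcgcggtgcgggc
E2F1: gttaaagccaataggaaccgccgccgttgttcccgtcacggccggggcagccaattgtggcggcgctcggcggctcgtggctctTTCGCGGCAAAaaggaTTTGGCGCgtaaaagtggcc
E2F2: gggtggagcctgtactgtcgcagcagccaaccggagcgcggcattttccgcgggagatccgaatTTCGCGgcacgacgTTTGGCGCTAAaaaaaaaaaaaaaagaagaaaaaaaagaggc
E2F3 first start: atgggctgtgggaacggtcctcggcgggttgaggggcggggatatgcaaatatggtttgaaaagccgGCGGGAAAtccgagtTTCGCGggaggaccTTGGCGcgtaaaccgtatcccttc
E2F3 second start: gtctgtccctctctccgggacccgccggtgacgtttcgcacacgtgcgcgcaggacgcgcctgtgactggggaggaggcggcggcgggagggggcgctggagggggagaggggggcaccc
E2F6: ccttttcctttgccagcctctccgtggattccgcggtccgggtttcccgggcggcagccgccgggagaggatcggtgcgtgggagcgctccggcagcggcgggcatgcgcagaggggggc

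All 10 members had a PML peak at the promoter, meaning a peak centred within 1000 bp of a transcription start site (TSS). Such a peak was found at 78.6% of the protein-coding genes that the table names and at 54.4% of all RefSeq protein-coding genes. Members were named in the table to begin with, so the first share is the nearer comparison, and it is itself high. Each member had exactly 1 promoter peak, while 9.11% of genes with a promoter peak had more than 1. The peak covered the TSS itself in all 10 members, against 80.9% of genes with a promoter peak.

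Scores at these promoters ran from 36 at RBL1 to 315 at E2F6. The score is the authors' own value per peak, in whole numbers, and served only to rank peaks within this list. Its median over the highest promoter peak of each gene was 66 in the 10 members and 63 in all 10958 genes with a promoter peak. E2F6, RB1 and RBL2 scored 315, 202 and 149, and the other 7 members lay between 36 and 68. A score of 100 or more was thus reached by 3 of 10 members, against 27.4% of all genes with a promoter peak, so the family as a whole lay near the background. Between 68 and 149 no member was found.

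**Figure D1:**
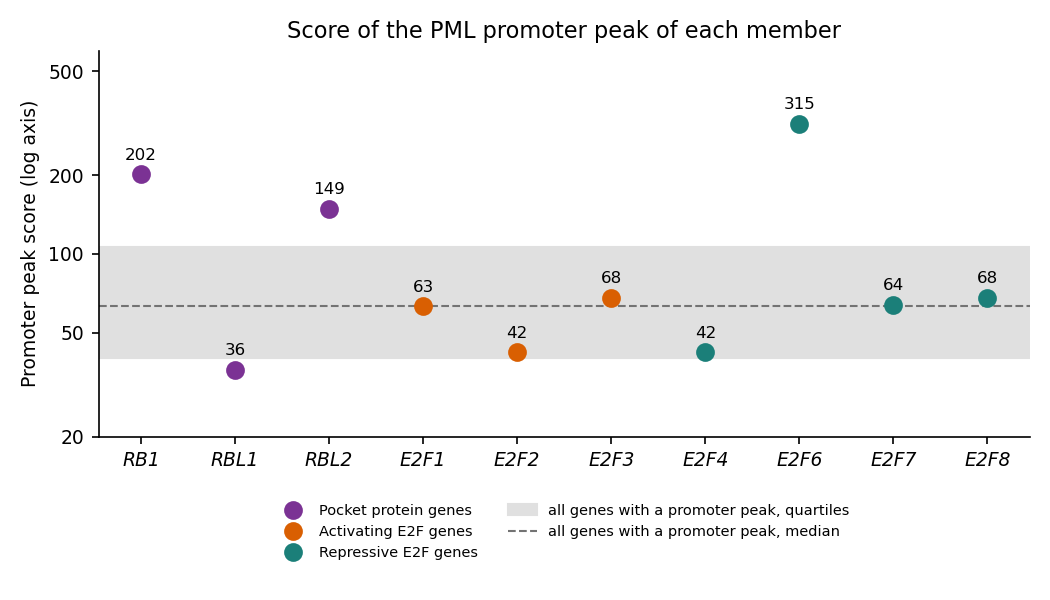
Score of the PML promoter peak (log axis) of each member, ordered as pocket protein genes, activating E2F genes and repressive E2F genes; each point is 1 peak of the merged list. E2F6 at 315, RB1 at 202 and RBL2 at 149 lie above the grey band of the quartiles of all genes (40 to 106), and RBL1 at 36 lies below it.

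Among the pocket protein genes, RB1 and RBL2 carried high-scoring promoter peaks and RBL1 a low one. RB1 encodes the retinoblastoma tumour suppressor, which holds the activating E2Fs in check. Its peak on chromosome 13 from 48303359 to 48304597 scored 202 and exceeded 94.6% of genes with a promoter peak. The peak reached 388 bp before the TSS and 850 bp into the gene. The divergent noncoding gene RB1-DT ends 49 bp from RB1, and the same peak covered that end, so it cannot be given to 1 of the 2 starts.

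RBL2 encodes p130, the pocket protein of resting cells and of the DREAM repressor complex. Its peak on chromosome 16 from 53434321 to 53435094 scored 149, above 87.1% of genes. A second RBL2 start in the RefSeq promoters lay 525 bp beyond the end of this peak and under none. RBL1 encodes p107, a pocket protein that is itself made under E2F control. Its peak on chromosome 20 from 37095695 to 37096249 scored 36, the lowest of the family, above 18.6% of genes. That peak was centred 25 bp from the TSS and was 555 bp wide, against a median of 798 bp over all genes.

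The 3 activating E2F genes had middling to low promoter scores, all at or below 68. E2F1, which drives entry into S phase, had a score of 63, equal to the median of all genes. Its peak on chromosome 20 from 33684231 to 33686830 was 2600 bp wide, wider than 98.1% of promoter peaks. It reached 444 bp before the TSS and 2154 bp into the gene, with its centre in intron 1. Wide promoter peaks scored higher across all genes, with a median score of 36 under 500 bp, 61 from 500 to under 1000 bp, 98 from 1000 to under 2000 bp and 139 at 2000 bp or more (590 genes). E2F1 thus combined a very broad peak with an ordinary score.

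E2F2, a close relative of E2F1, had a peak on chromosome 1 from 23530545 to 23531699 with a score of 42, above 25.7% of genes. The authors' annotation placed its centre in the 5′ UTR, 111 bp from the TSS. E2F3 scored 68, with a peak on chromosome 6 from 20402476 to 20403797. E2F3 is known to have separate starts for its long (E2F3a) and short (E2F3b) forms. The RefSeq promoters held a pair of E2F3 starts 1735 bp apart. The peak began 597 bp after the first start and covered the second, and the deposited table measured its distance of -543 bp from a start of that second kind. The window around the first start was under no peak.

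**Figure D2:**
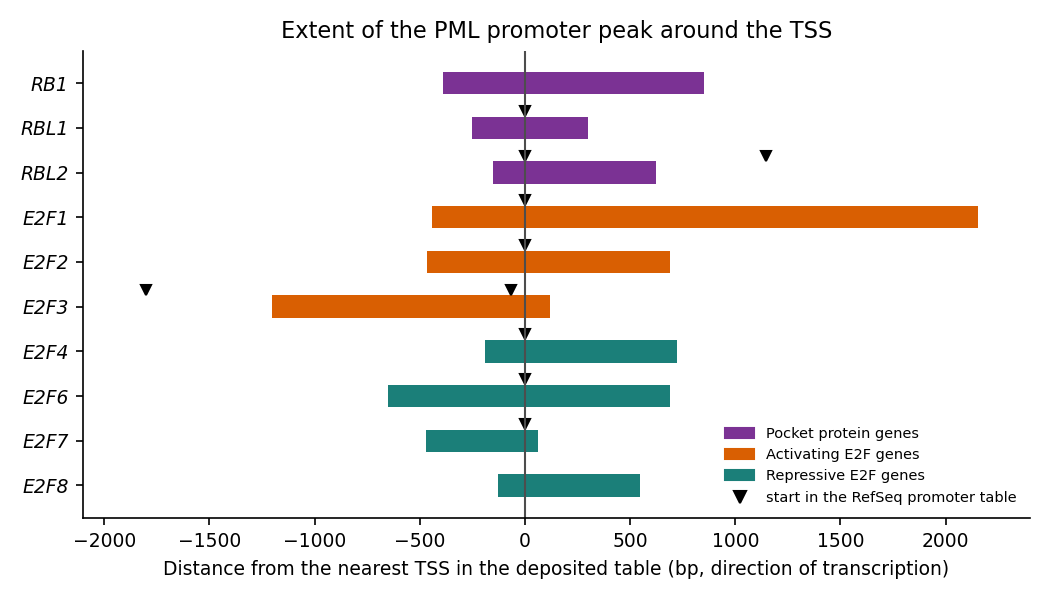
Extent of each promoter peak (bars) around the TSS named in the deposited table, in bp along the direction of transcription, with triangles at starts of the RefSeq promoters that lie in the plotted range. E2F1 reaches 2154 bp into the gene, and the E2F3 bar begins after its first triangle and covers the second.

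The repressive E2F genes held the highest score of the family and otherwise values close to those of the activating genes. E2F6 encodes an E2F that lacks a pocket protein binding region and represses genes through Polycomb complexes. Its promoter peak on chromosome 2 from 11465469 to 11466814 scored 315, which ranks 103 among 10958 genes and 185 in the whole list. It was centred 20 bp from the TSS, the closest of the family, and reached 652 bp before it and 692 bp after it.

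E2F7 and E2F8 encode the atypical E2Fs, which bind DNA without a DP partner and repress E2F1 among other genes. They scored 64 and 68, above 50.3% and 51.8% of genes. The E2F7 peak on chromosome 12 from 77065505 to 77066037 lay mainly upstream, with 468 bp before the TSS and 64 bp after it. The E2F8 peak on chromosome 11 from 19241071 to 19241747 had 127 bp before the TSS and 549 bp after it. E2F4, the main E2F of resting cells, scored 42 with a peak on chromosome 16 from 67191964 to 67192880, annotated to a CpG island. Over the family, 8 of 10 peaks reached further into the gene than upstream, E2F3 and E2F7 being the exceptions, and 71.2% of genes with a promoter peak did so.

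Set side by side, the classes overlapped. Median promoter scores were 149 in pocket protein genes, 63 in activating E2F genes and 66 in repressive E2F genes, with ranges of 36 to 202, 42 to 68 and 42 to 315. The lowest score belonged to a pocket protein gene and the highest to a repressive E2F gene. Median widths were 774 bp, 1322 bp and 797 bp, with ranges of 555 to 1239 bp, 1155 to 2600 bp and 533 to 1346 bp. The narrowest of the 3 activating peaks, 1155 bp at E2F2, was wider than 73.1% of promoter peaks over all genes. RB1 and E2F6 also had peaks wider than that of E2F2. With 3 or 4 genes a class and 1 merged list, these values describe the genes and no difference between classes was tested.

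Beyond the promoter, 4 of 10 members were named for a peak in the gene body or at its end, against 44.3% of protein-coding genes named in the table. These were RB1, RBL1, E2F1 and E2F6. By class this made 2 of 3 pocket protein genes with 4 peaks, 1 of 3 activating genes with 1 peak and 1 of 4 repressive genes with 1 peak. The scores of all 14 member peaks outside the promoter window ran from 21 to 84 with a median of 38, against a median of 31 over such peaks of protein-coding genes. None of them approached the promoter scores of E2F6, RB1 or RBL2.

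RB1 held 6 peaks inside its span of 178140 bp, of which 3 were named for RB1 and 3 for LPAR6, a receptor gene nested in an RB1 intron. Among 1448 genes of like length (within 1.5 times), the median was 1 such peak and 78.2% had fewer than 6. Per length RB1 held 3.37 peaks per 100 kb, beside a median of 0.427 per gene and a pooled 2.95 over RefSeq protein-coding genes named in the table. Intron 2 held all 3 peaks named for RB1. The peaks from 48317623 to 48317887 (score 31) and from 48318685 to 48319042 (score 46) lay within PPP1R26P1, a pseudogene inserted in that intron, and the second was annotated to a CpG island. RB1 is known to carry an imprinted CpG island in this pseudogene, which is methylated on the maternal copy. The third intron 2 peak scored 21 at an L1P1 element, and the 3 peaks named for LPAR6 scored 36, 48 and 31 at L1PA7 and MER52A elements. A repeat was thus named at 4 of the 6.

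RBL1 had 1 peak inside the gene, in intron 2 at an SVA_F retroposon from 37068971 to 37069653, whose score of 42 was above the 36 of its own promoter. RBL2 had none inside its 57178 bp, and neither had E2F2, E2F3, E2F4, E2F6, E2F7 or E2F8. Among genes of like length, the share with none ran from 42.7% at the length of E2F3 to 56.6% at that of E2F4, so a lack of inner peaks was common.

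E2F1 was densely covered for its size. Its 10909 bp held 3 further peaks, or 27.5 per 100 kb, and 87.8% of the 2289 genes of like length had fewer. The peak in intron 1 from 33681490 to 33681861 scored 29 and was named for E2F1. Those in intron 2 from 33679658 to 33680535 (score 66) and over exon 7 from 33676320 to 33677419 (score 44) were named for NECAB3, the next gene downstream, which lies 129 bp away. The intron 2 peak scored slightly above the E2F1 promoter peak. Another 3 peaks lay upstream of E2F1, the nearest centred 1009 bp from the TSS and so just outside the promoter window, with a score of 24 at an AluJb element. The others lay 8107 bp upstream at an L2a element (score 36) and 14749 bp upstream at an SVA_D retroposon (score 50).

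**Figure D3:**
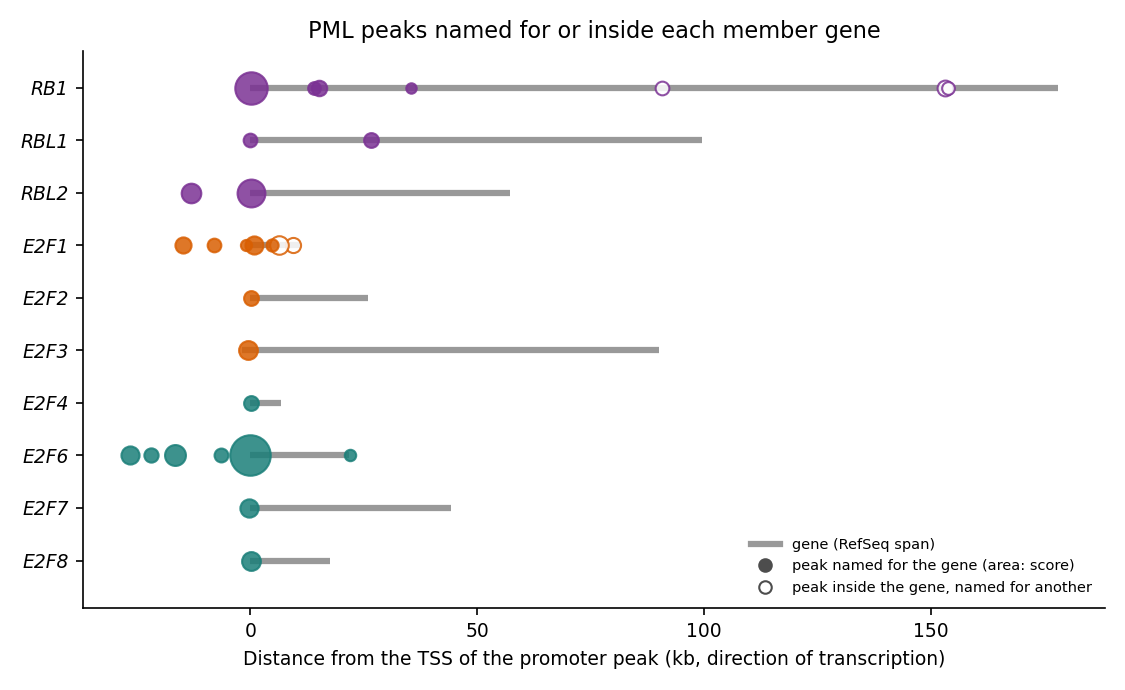
Peaks along each member gene, in kb from the TSS in the direction of transcription; grey lines are the RefSeq gene spans, filled circles are peaks named for the gene and open circles peaks inside it that are named for another gene, with the circle area proportional to the score. RB1 has 6 inner peaks spread over 178140 bp and E2F1 has 3 within 10909 bp, while E2F6 has 4 upstream peaks.

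E2F6 was the member with the most named peaks, 6 in all. Upstream of it lay 4 intergenic peaks, at 6548, 16681, 21895 and 26579 bp from the nearest E2F6 start. The peak from 11482135 to 11483581, annotated to a CpG island, scored 84 and was 1447 bp wide, the highest score of any member peak outside a promoter. The other 3 scored 37 at an MSTA element, 39 and 63 at an LTR88c element. A peak of score 25 lay at the end of the gene, from 11443994 to 11444302. RBL2 had 1 upstream peak, 13004 bp away at an LTR12D element, with a score of 74.

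Repeats were named at the centre of 9 of the 14 member peaks outside the promoter window, against 29.0% of such peaks of protein-coding genes. They comprised 3 LINE, 3 LTR, 2 SVA retroposon and 1 SINE. The 9 peaks belong to 5 genes, with 4 of them at E2F1, and they share loci, so the count rests on few places. How the authors placed reads of repeated sequence is not stated in the labels, and its part in these peaks was not tested.

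The surroundings of the members differed too. Within 100000 bp of the promoter peak there were 25 peaks at E2F6, 24 at E2F4 and 18 at E2F1, counting the promoter peak, against a median of 7 over all genes with a promoter peak. RBL2 had 7, RB1 6, E2F2 5 and RBL1 3. At E2F3, E2F7 and E2F8 the promoter peak was the only one, which 8.83% of genes with a promoter peak shared. E2F3, E2F7 and E2F8 scored 68, 64 and 68, above E2F4 at 42 with its 24 peaks. E2F6 with 25 peaks had the highest score, 315, and RBL1 with 3 the lowest, 36. A relation between score and nearby peaks was not tested. Copy number of these loci was not analysed here, and its part in the scores was not tested.

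Promoter letters were compared with the peaks for the 9 members that the RefSeq promoters hold, in windows of 300 bases of which 250 lie before the start. E2F8 is the member without an entry. The 1 entry of RB1 is an inner start 172699 bp into the gene, under no peak. Of 11 member windows, 8 were under a peak, against 40.1% of all windows. All members had a promoter peak, whereas the windows of all genes include genes without one. A higher share in the members thus follows from their promoter peaks and adds nothing to them. An E2F site stood in 1 window each of 4 members (RBL1, E2F1, E2F2 and E2F3), while 3.30% of 34943 promoter windows held one. The share was 5.26% of windows under a PML peak and 1.98% of the rest; windows under a peak also had more G and C (median 68.0%, against 58.7% over all windows), and its part in these shares was not tested.

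In RBL1 a pair of sites, TTTCGCGC at -26 to -19 and TTTGGCGC at -16 to -9, stood close together before the start (positions count back from the start). E2F1 had a pair too, at -33 to -26 on the reverse strand and -20 to -13. E2F2 had 1, at -42 to -35. All 3 windows lay under their peaks, whose scores of 36, 63 and 42 were no higher than the median of all genes. In E2F3 the site stood at -53 to -46 of the first start, which no peak covered, and the window of the second start, under the peak, held none of these letters. The windows of E2F6 and RBL2, under 2 of the 3 highest-scoring peaks, held no E2F site either.

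The shorter E2F core lies within TTTCGCGC and TTTGGCGC but not within TTTCCCGC or TTTGCCGC, and was chosen after the sequences had been seen. It stood in 7 of 11 member windows, 1 window a member, against 21.2% of all windows and 32.5% of those under a peak. RBL2 carried it at -28 to -23, E2F4 at -100 to -95 and E2F7 at -132 to -127 and -8 to -3, whereas E2F6 had none. The RONIN motif, ACTACA followed within 2 to 4 bases by CCC, was in no member window, against 2.38% of all windows and 3.85% of those under a peak. The shorter RONIN core stood in RBL2 at -87 to -76, under the peak, and in 2.24% of all windows (3.85% of those under a peak, 1.16% of the rest). The GC box, GGGCGG, was in 7 of 11 member windows, against 44.9% of all windows and 74.7% of windows under a peak. The ETS site CCGGAAG was in 1 (E2F7), against 10.2% of all windows and 17.8% of those under a peak. The CHR element TTTGAA, the cell cycle element bound by MuvB, was in 2 (RBL2 and the first start of E2F3), against 15.2% of all windows and 6.92% of those under a peak. The motifs were read on both strands. A match is a description of letters and a missing match concerns these windows only.

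Genes that work with the family were taken from 4 lists of 36 partners, of which 31 were named for any peak. A promoter peak was found at 29 of these 31 (93.5%), beside 78.6% of protein-coding genes named in the table. Over all 36 partners the share was 80.6%, beside 54.4% of all RefSeq protein-coding genes. The median score of those with a promoter peak was 68, against 63 over all genes.

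The list of DP partners, MuvB core subunits and other genes tied to the DREAM complex or MuvB (MYBL2, FOXM1 and DYRK1A) had promoter peaks at 7 of 10 genes, with a median of 28. DYRK1A, the kinase that starts DREAM assembly, scored 259, and TFDP1, the main dimer partner of E2Fs, scored 229. The other DP gene, TFDP2, had no promoter peak, its nearest peak being 8213 bp from the TSS with a score of 26. RBBP4 and FOXM1 also lacked one by this assignment. A peak named for ZBTB8OS (score 247), 276 bp from RBBP4, lay at an end of RBBP4, and one named for RHNO1 (score 216), which overlaps FOXM1, lay at an end of FOXM1. The table gives each peak to a single gene, so such shared promoters count for 1 partner. The median of 28 thus leaves out the peaks of 247 and 216 at RBBP4 and FOXM1 and rests on this assignment.

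Cyclins and kinases that phosphorylate pocket proteins had promoter peaks at 7 of 8 genes, with a median of 75. The D-type cyclin genes CCND2 and CCND1 had the highest scores of that list, 98 and 90. The third, CCND3, had the lowest at 42, equal to the kinase gene CDK4, and CDK2 was named for no peak. Corepressors that pocket proteins recruit had them at 9 of 11 genes, with a median of 65, and the histone deacetylase genes HDAC2 and HDAC1 scored 124 and 96. KDM5A and SIN3B were named for none, though a peak of CCDC77 (score 79), 27 bp from KDM5A, lay at an end of KDM5A. Partners of E2F6 in the PRC1.6 Polycomb complex had them at 6 of 7 genes, with a median of 75.5. RNF2, a ubiquitin ligase of that complex, scored 160 and MGA, its scaffold, 119, both below the 315 of E2F6 itself, and L3MBTL2 was named for none.

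**Figure D4:**
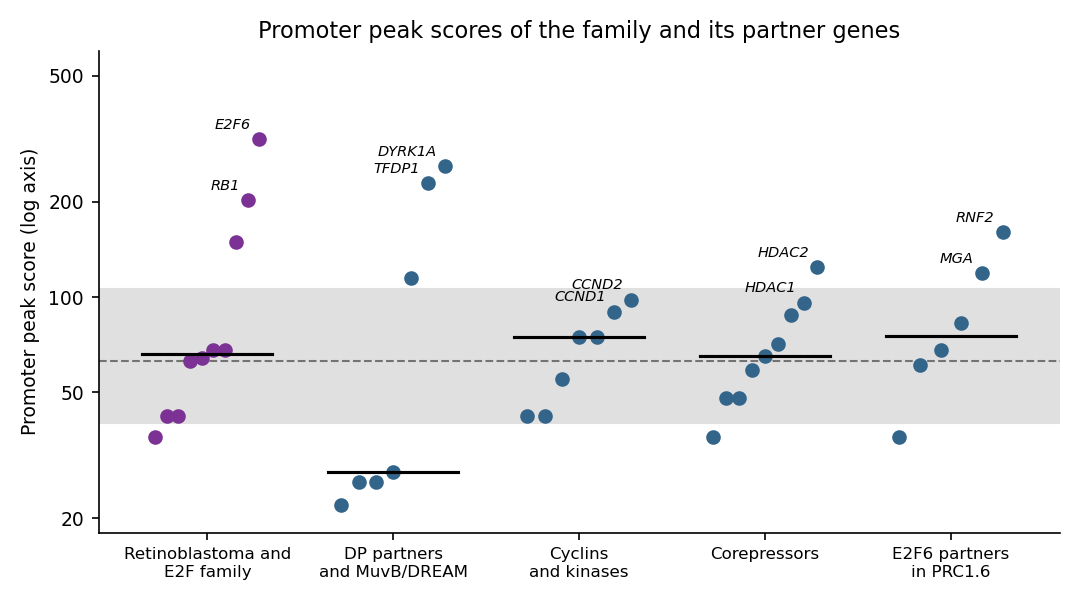
Promoter peak scores (log axis) of the 10 members and of the partner genes with a promoter peak; points are genes, black lines medians, the grey band and dashed line the quartiles and median of all genes with a promoter peak, and the 2 highest genes of each list are named. E2F6 at 315 tops all lists. The list of DP, MuvB and DREAM genes has the lowest median, 28, over genes with a promoter peak assigned to them. Peaks of 247 and 216 at ends of RBBP4 and FOXM1, named for neighbouring genes, are left out, so this order rests on the assignment.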

How the data were processed

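The submitters' processing notes list MACS2 2.1.1.20160309, HOMER 4.11.1, BWA 0.7.12, Trimmomatic 0.36 and Picard 2.0.1 with hg38, without settings or order. Per the labels, duplicates were merged and input was the reference for peak calling. The deposited peak score is a whole number of unstated scale. Read depth is unknown from the table.

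Each peak was given to the gene that the table names. A promoter peak is centred within 1000 bp of the TSS, and a gene body peak lies further into the gene in an intron, exon, UTR or end class. Spans and neighbours come from RefSeq GRCh38.p14, to which all 10 members matched by symbol. Percentages of all genes serve as background; no test was run. Functions were tested on simulated data. Calculations used Python 3.11.15, numpy 2.4.6, pandas 2.3.3 and matplotlib 3.10.9.

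All members are described; of each partner list the 2 highest-scoring genes and those without a promoter peak are named; CCND3 and CDK4 were added after their values had been seen. The members and lists were chosen with earlier results of these data known.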

Additional observations from a re-analysis of the deposited data

How the results depend on the processing

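Each value was recomputed with a 500 or 5000 bp promoter window, the authors' promoter class, peaks at or above the median score of 34, the 5000 highest-scoring peaks, and overlap with RefSeq spans by 1 bp or by 0.5 of the peak. The background of all RefSeq genes and the shorter motif cores were chosen after seeing the data. Shares over all genes are given for the 1000 bp window only, so the member counts below have no background of their own. Of 46 recomputed values 31 were labelled as near the main one and 15 as moved. The 31 include 8 and 7 members with a promoter peak instead of 10, and 6 members with a gene body peak instead of 4. The 15 include medians of 68 and 64 over all members instead of 66, so the tally is coarse. With 500 bp, 8 of 10 members had a promoter peak, E2F1 and E2F3 being lost, and the activating median was 42 from E2F2 alone. With the promoter class, 7 members had one, because E2F1, E2F2 and E2F4 peaks were classed otherwise, and the medians were 68 over all members, 68 for activating and 68 for repressive genes. With RefSeq overlap, E2F3 was lost since its peak is centred over 1000 bp from the first start, and the medians were 64 over all members and 52.5 for activating genes, under either overlap. With peaks at or above the median score, 2 members had a gene body peak. With the 5000 highest-scoring peaks, all of 96 or more, 3 members and 3 peaks were left, with medians of 202 over all members, 175.5 for pocket protein genes and 315 for repressive genes, no activating gene and 0 members with a gene body peak. These changes follow by construction from a narrower window, another promoter class, fewer peaks kept or other starts. The pocket protein median was 149 under every other alternative run. No paired analysis was possible because the duplicates were merged into 1 list, and no library could be left out. Scores near the lower end are shared by many peaks (3104 have 42 and 4401 have 36), so ranks there are coarse.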
